A study of Mus musculus with 8 samples.

Results

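The 34 genes described here carry glucose into the cell, run glycolysis, sense oxygen, or answer to the hypoxia-inducible factors, and they were followed in the chromatin accessibility profiles (ATAC-seq) of alveolar macrophages. Alveolar macrophages (AMs) live in the airspaces of the lung, where they clear surfactant and inhaled particles. An accessible region belonged to a gene where it overlapped the gene body or the 10 kb on either side in the mm10 build (GENCODE M21 gene models). By this rule 207 of the 72711 accessible regions of the series lay at these genes, and no region was shared by 2 of them. Of the 207, 52 were promoters of the gene itself, with the peak summit within 1 kb of one of its transcription start sites (TSS), 15 were promoters of a neighbouring gene, and 140 were distal. Distances given below run from the summit to the nearest annotated TSS of the gene, called its start, unless the 5' end of the gene model is named.

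AMs were obtained by bronchoalveolar lavage and sorting from adult mice of 2 genotypes, with 4 ATAC-seq libraries each. The WT mice were Rxrab fl/fl, carrying floxed alleles of Rxra and Rxrb, which encode retinoid X receptors (RXR) alpha and beta, without Cre (replicates 1_2, 1_3, 3 and 4). The KO mice were CD11cCre+ Rxrab fl/fl (replicates 1_2, 1_3, 2 and 3), so that both groups carried the floxed alleles and Cre acted in cells with an active CD11c promoter, which other lung phagocytes also use. The labels do not say whether replicates 1_2 and 1_3 came from 1 animal. If they did, p-values over these libraries measure in part a technical spread.

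Glycolysis splits glucose to pyruvate in the cytosol and needs glucose transporters at the entry and a way to dispose of pyruvate, as lactate or into the mitochondrion, at the end. When oxygen is low, the prolyl hydroxylases EGLN1 and EGLN3 and the VHL ubiquitin ligase no longer remove the alpha subunits HIF1A and EPAS1 (HIF-2 alpha), which pair with ARNT, bind the letters ACGTG or GCGTG, and switch on most of the enzymes and transporters named here. AMs are known for burning fatty acids from surfactant rather than glucose, and the nuclear receptor PPARγ, which drives that program, binds DNA together with RXR.

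Each library had its own list of peaks, with between 60363 and 72484 entries. The unit used throughout is the number of overlapping tags at a peak's summit (a tag is a 200 bp window placed on a transposase cut), worked back from the statistics in the lists and divided by a scale factor per library that ran from 0.843 to 1.342. The background held between 1.12 and 2.26 tags, and the weakest peaks called rested on 6 to 9 tags, which is the depth below which a region could not be listed. Differences are log2(KO) minus log2(WT) of tags + 0.5, tested with limma (Benjamini-Hochberg adjusted p, threshold 0.05) over all 47499 regions that had a peak in all 8 libraries. The Rxra gene was searched for regions with a peak in all 4 WT libraries and in no KO library. The search returned an Rxra intron with 38, 46, 38 and 42 unscaled tags in the WT libraries. This pattern was the search rule, so it is not an independent check of the genotypes. It was met by 0.82% of the 72711 regions of the series. The promoters of 8 of 11 AM marker genes, Siglecf and Pparg among them, had a peak in all 8 libraries. No library had a promoter peak at Cd3e, Cd3g, Cd79a, Ly6g, Sftpc or Cdh5, markers of other cells, whereas S100a8, Epcam, Pecam1 and Ly6c2 had one in all 8.

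A selection of summit sequences is given first, from the largest losses, the gains at Epas1 and Slc2a6, and losses with an AP-1 or DR1 match, on the plus strand of mm10 as in the GRCm38.p6 reference. They were read within 100 bp of the summit and without annotated exons. Capitals mark matches, on either strand, to the hypoxia response core (ACGTG or GCGTG), to the AP-1 site (TGACTCA), to the PU.1 site (GAGGAAGT), to the E-box (CACGTG, which overlaps the hypoxia core), or to DR1, the RXR and PPARγ element, searched as a pair of AGGTCA half-sites 1 base apart with at most 2 mismatches.
Pgam1 downstream region, chr19:41918661-41918820, lower in KO: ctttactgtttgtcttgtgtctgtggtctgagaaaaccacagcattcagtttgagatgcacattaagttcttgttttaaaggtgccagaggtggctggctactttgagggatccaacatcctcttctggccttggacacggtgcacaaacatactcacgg
Pfkfb4 intron, chr9:109027650-109027744, lower in KO: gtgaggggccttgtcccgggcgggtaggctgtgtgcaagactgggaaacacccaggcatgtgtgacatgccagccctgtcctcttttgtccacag
Pfkfb3 intron, chr2:11482734-11482934, lower in KO: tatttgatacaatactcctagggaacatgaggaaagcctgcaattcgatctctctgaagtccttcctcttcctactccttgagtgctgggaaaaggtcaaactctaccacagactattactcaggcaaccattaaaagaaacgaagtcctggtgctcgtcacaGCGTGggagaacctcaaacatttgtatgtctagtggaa
Egln3 intron, chr12:54191269-54191469, lower in KO: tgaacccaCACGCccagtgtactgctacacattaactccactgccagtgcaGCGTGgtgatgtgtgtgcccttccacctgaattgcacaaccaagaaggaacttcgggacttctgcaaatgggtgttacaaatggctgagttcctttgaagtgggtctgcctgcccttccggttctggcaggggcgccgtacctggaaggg
Egln3 intron, chr12:54192100-54192300, lower in KO: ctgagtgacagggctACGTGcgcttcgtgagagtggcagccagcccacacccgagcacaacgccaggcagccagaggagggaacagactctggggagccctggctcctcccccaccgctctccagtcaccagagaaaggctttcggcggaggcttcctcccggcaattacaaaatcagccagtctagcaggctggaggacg
Pfkp intron, chr13:6618813-6619013, lower in KO: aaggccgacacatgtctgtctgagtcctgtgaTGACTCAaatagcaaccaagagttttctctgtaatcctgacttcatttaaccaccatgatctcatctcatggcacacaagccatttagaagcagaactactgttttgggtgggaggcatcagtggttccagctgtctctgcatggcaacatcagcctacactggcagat
Ldha upstream region, chr7:46833365-46833565, lower in KO: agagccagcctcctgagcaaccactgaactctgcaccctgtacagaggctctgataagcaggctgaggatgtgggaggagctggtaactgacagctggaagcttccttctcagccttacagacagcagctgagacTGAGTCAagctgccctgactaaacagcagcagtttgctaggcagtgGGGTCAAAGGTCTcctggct
Epas1 promoter, chr17:86753380-86753580, higher in KO: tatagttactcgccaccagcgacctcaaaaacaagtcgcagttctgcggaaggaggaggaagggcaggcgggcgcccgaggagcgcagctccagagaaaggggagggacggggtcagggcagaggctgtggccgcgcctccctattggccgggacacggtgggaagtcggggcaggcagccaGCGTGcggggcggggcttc
Epas1 intron, chr17:86787902-86788102, higher in KO: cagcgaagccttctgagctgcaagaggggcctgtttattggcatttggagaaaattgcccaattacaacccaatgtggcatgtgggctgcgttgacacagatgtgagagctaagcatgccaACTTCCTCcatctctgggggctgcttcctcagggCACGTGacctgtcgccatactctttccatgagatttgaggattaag
Slc2a6 promoter, chr2:27027999-27028132, higher in KO: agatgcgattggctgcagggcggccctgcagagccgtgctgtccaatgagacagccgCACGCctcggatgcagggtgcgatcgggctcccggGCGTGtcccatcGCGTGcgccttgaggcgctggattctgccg

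The clearest changes at these genes were losses of accessibility in KO at distal elements of the fructose-2,6-bisphosphate enzymes Pfkfb4 and Pfkfb3, of the oxygen sensor Egln3 and of the glycolytic mutase Pgam1, down to between 54.9% and 65.9% of WT. Gains were smaller at promoters, and were found at Epas1, the glucose transporter Slc2a6 and the pyruvate dehydrogenase kinase Pdk1. Of the 163 regions of these genes that had a peak in all 8 libraries, 9 were lower in KO (5.52%, against 7.03% of all regions tested) and 6 were higher (3.68%, against 5.81%). All 9 lower regions were distal, 9% of the 100 distal regions tested against 8.7% of all distal regions, and no promoter was lower (limma, 3 at an unadjusted p under 0.05), against 2.7% of all promoters. Of the 6 higher regions 4 were promoters of the gene itself, 8.33% of the 48 tested against 6.85% of all promoters, 1 was the promoter of a neighbour and 1 was distal, against 5.41% of all distal regions. The shares called at these genes thus lay near or below those over all regions tested. Of the 34 genes, 11 (32.4%) had at least 1 region past the test. The share of all genes with such a region was not counted, so this number is not read as a result about these genes. At an unadjusted p under 0.05 there were 33 regions (20.2% of those tested, against 26.2% of all regions). The region closest outside the adjusted threshold, in the Hif1a window at the promoter of a neighbouring gene, had a log2 difference of -0.60 and an adjusted p of 0.0549.

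The scaling mattered to these counts. With libraries scaled by background tags in place of the median region, 5 regions of these genes were lower and 0 higher (limma, 17 and 4 at an unadjusted p under 0.05), and over all regions the split moved from 3337 lower and 2759 higher to 1988 lower (4.19%) and 575 higher (1.21%). At that scaling the 5 lower regions were those of Pgam1 and Pfkp, the one 35.8 kb into Pfkfb4, the Pfkfb3 intron and the Egln3 intron at 12.5 kb. Single libraries moved the gains too: without KO replicate 3 the higher regions were 3 in place of 6, and without KO replicate 1_2 the higher own promoters were 2 in place of 4.

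**Figure D1:**
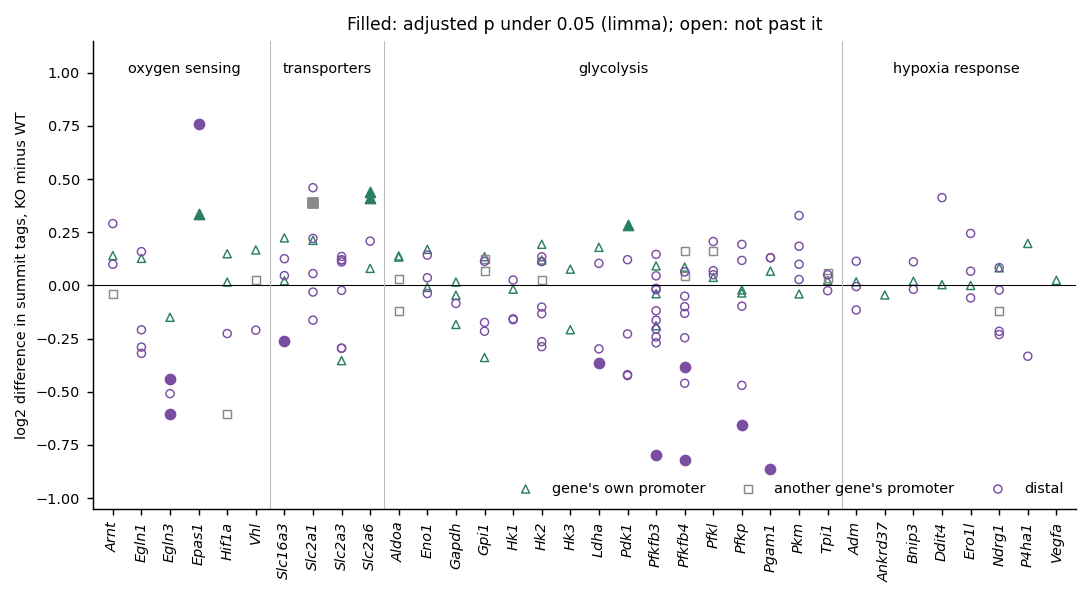
Log2 differences in summit tags (KO minus WT, vertical axis) of the 163 tested regions, by gene and role of the gene. Triangles are promoters of the gene itself, squares promoters of another gene and circles distal regions, and filled symbols passed the test: all 9 filled symbols below 0 are circles, and 4 of the 6 above 0 are triangles.

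The genes that sense oxygen or transmit its lack showed changes in both directions. Egln3, which encodes a prolyl hydroxylase that marks the HIF alpha subunits and whose own gene is a HIF target, lost accessibility at a pair of intronic regions. The region 12.5 kb from its start (chr12:54191125-54191580) had 130.6, 144.6, 113.6 and 130.7 scaled tags in the WT libraries (replicates 1_2, 1_3, 3 and 4, the order kept below), and 98.6, 86.9, 75.5 and 80.6 in the KO libraries (replicates 1_2, 1_3, 2 and 3). All 4 KO libraries lay below all 4 WT libraries, and KO was at 65.9% of WT (log2 difference -0.60 ± 0.11 SE, limma adjusted p = 1.14e-04). The region 11.7 kb from the start (chr12:54191933-54192407) had 148.0, 128.9, 119.0 and 124.0 scaled tags in WT and 102.6, 82.8, 85.7 and 113.9 in KO. Here too the groups did not overlap (log2 difference -0.44 ± 0.11 SE, limma adjusted p = 0.00529), but the call was lost with scaling by background (log2 difference -0.49, adjusted p = 0.0540). The Egln3 promoter, with 122.8, 128.9, 146.5 and 133.0 scaled tags in WT and 126.5, 120.2, 117.2 and 113.9 in KO, overlapped between the groups (log2 difference -0.15, 95% interval -0.35 to 0.05). The intronic pair holds 3 hypoxia response cores in the windows printed above, 2 in the first and 1 in the second.

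Epas1, which encodes HIF-2 alpha, was the gene with the opposite course. Its promoter (chr17:86753108-86753878, summit 220 bp before the start) had 196.3, 186.3, 197.8 and 175.8 scaled tags in WT and 239.0, 234.4, 268.3 and 215.8 in KO. Every KO library was above every WT library, at 126% of WT (log2 difference 0.34 ± 0.09 SE, limma adjusted p = 0.00567). A weak region in an Epas1 intron 34.3 kb from the start (chr17:86787829-86788184) had 16.4, 12.7, 15.6 and 19.2 scaled tags in WT and 21.9, 26.3, 25.9 and 35.6 in KO. This was the largest gain at any of the 34 genes under the main scaling, 169% of WT (log2 difference 0.76 ± 0.21 SE, limma adjusted p = 0.00875). By strength it stood at percentile 7.70 of all regions tested, and without KO replicate 3 it no longer passed (log2 difference 0.63, adjusted p = 0.0592). Less than 1 kb before it, a region at chr17:86787110-86787416 had a peak in all 4 KO libraries (13, 16, 18 and 17 unscaled tags) and in WT replicate 4 alone (11 tags). The window of the intronic region holds CACGTG, in which the hypoxia core reads on both strands, and a PU.1 site, the element of a master factor of macrophages.

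The other genes of this branch had no region past the test. The Hif1a promoter (chr12:73907396-73908300) had 257.3, 258.6, 273.8 and 280.7 scaled tags in WT and 312.7, 266.7, 311.1 and 297.7 in KO, which overlap (log2 difference 0.15, 95% interval -0.01 to 0.31). Arnt, the partner of both alpha subunits, had a promoter at rank 2 of the 34 by strength, with a mean of 399.9 scaled tags and a log2 difference of 0.14 (95% interval -0.02 to 0.30). The promoters of the hydroxylase gene Egln1 and of Vhl were weaker, at means of 84.2 and 56.2 scaled tags, with log2 differences of 0.13 and 0.17 that did not pass. In all, the 22 tested regions of the 6 oxygen-sensing genes included 2 lower and 2 higher, with a median log2 difference of -0.01. The shares over all regions tested were 7.03% lower and 5.81% higher.

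**Figure D2:**
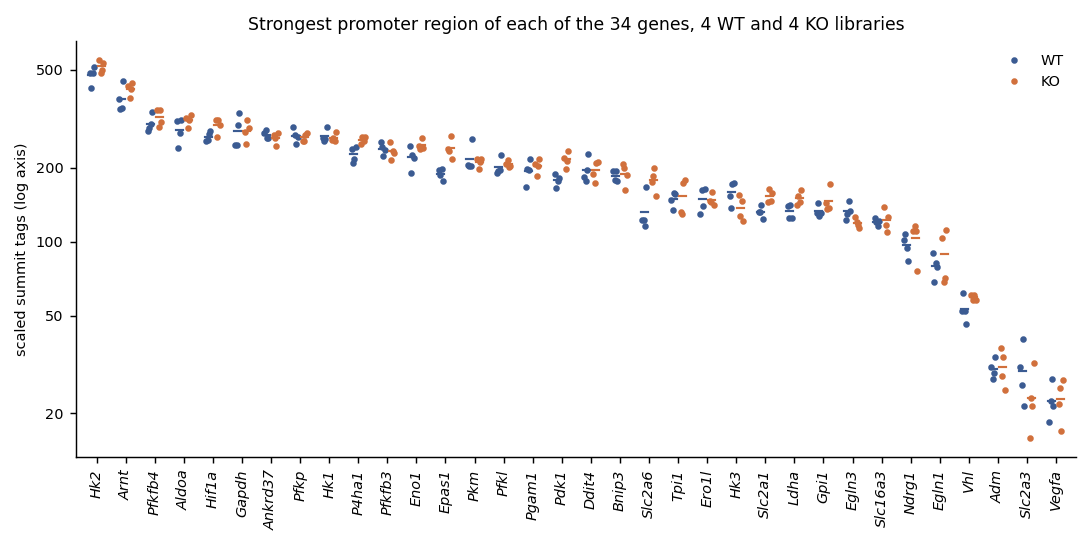
Scaled summit tags (vertical log axis) at the strongest own promoter of each of the 34 genes, ordered by mean, with 1 point per library and a line at the mean of each genotype. WT and KO points lie close together at nearly every gene, the levels run from a mean of 496.7 at Hk2 to 22.6 at Vegfa, and Epas1, Pdk1 and Slc2a6 are the promoters past the test.

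Among the carriers of glucose and lactate, Slc2a6 gained accessibility. Slc2a6 encodes GLUT6, a hexose transporter found in leukocytes and on lysosomes. Its promoter at the start (chr2:27027846-27028251) had 122.8, 123.0, 115.4 and 166.8 scaled tags in WT and 174.3, 184.9, 198.4 and 153.0 in KO. WT replicate 4 stood above KO replicate 3, so the groups overlapped, while the difference passed the test at 135% of WT (log2 difference 0.44 ± 0.10 SE, limma adjusted p = 0.00285). The region 807 bp before the start (chr2:27028617-27028999) had 82.2, 82.7, 87.9 and 92.4 in WT and 132.5, 107.1, 101.4 and 121.0 in KO, without overlap (log2 difference 0.41 ± 0.11 SE, limma adjusted p = 0.00915). Without KO replicate 1_2 it no longer passed (log2 difference 0.34, adjusted p = 0.0742). The start region holds 3 hypoxia response cores and the region further upstream none.

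Slc2a1 encodes GLUT1, the basal glucose transporter and a classical HIF target. Its promoter (chr4:119108503-119109490) had 132.5, 131.9, 141.0 and 124.0 scaled tags in WT and 145.4, 163.7, 146.5 and 157.7 in KO. All KO libraries were above all WT libraries, but the difference did not pass the test across regions (log2 difference 0.21, 95% interval 0.02 to 0.40, limma adjusted p = 0.140). A region in a Slc2a1 intron 22.7 kb from its start (chr4:119131189-119131575), 383 bp from the TSS of the antisense gene Gm12867, did pass, with 103.5, 105.1, 115.4 and 89.0 in WT and 116.5, 121.2, 156.7 and 148.2 in KO (log2 difference 0.39 ± 0.11 SE, limma adjusted p = 0.0131). Its call was lost without KO replicate 2 (0.33, adjusted p = 0.0649) and without KO replicate 3 (0.34, adjusted p = 0.0617). Slc16a3, the lactate exporter MCT4, was lower in a region over a coding exon 8.9 kb from its start (chr11:120957603-120958354), with 227.3, 226.5, 269.2 and 298.7 in WT and 230.1, 206.1, 217.5 and 194.5 in KO. The groups overlapped and the difference was the smallest of those past the test (log2 -0.26 ± 0.09 SE, limma adjusted p = 0.0456), and leaving out KO replicate 1_3, 2 or 3 or WT replicate 3 or 4 ended the call (adjusted p from 0.0812 to 0.169). Slc2a3, the high-affinity transporter GLUT3, had one of the weakest promoters, at a mean of 26.4 scaled tags, and 8 tested regions, none of which passed or had an unadjusted p under 0.05. Its most accessible region, with 477.3 scaled tags, lay at -68.3 kb from that start, beyond a longer gene model and 8867 bp from the start of Foxj2 (log2 difference 0.11).

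The enzymes and regulators of glycolysis had 94 tested regions, 6 of them lower and 1 higher. Over all regions tested, 7.03% were lower and 5.81% higher. Differences between the roles of the genes were not tested. Their 26 own promoters had a median log2 difference of 0.03 and their 58 distal regions one of -0.09, compared with 0.09 over all promoters and 0.01 over all distal regions. Pfkfb4 and Pfkfb3 make and break fructose 2,6-bisphosphate, the strongest activator of phosphofructokinase. Pfkfb4 had the most regions of all 34 genes, 15, of which 11 were tested. The one 35.8 kb from its start (chr9:109027421-109027952) lay over introns and exons in the downstream part of the gene, 10860 bp from the start of the next gene, Shisa5. It had 220.5, 203.4, 180.4 and 217.5 scaled tags in WT and 144.4, 121.2, 104.8 and 97.2 in KO. KO was at 56.6% of WT with no overlap, the lowest p of any region at these genes (log2 difference -0.82 ± 0.10 SE, limma adjusted p = 8.38e-08). The Pfkfb4 region 4.6 kb from the start (chr9:108996304-108996677) had 135.4, 87.9, 106.2 and 111.6 in WT and 85.7, 81.8, 78.9 and 87.8 in KO, which were close to overlapping (log2 difference -0.38 ± 0.12 SE, limma adjusted p = 0.0248). Its call was lost without KO replicate 2 (-0.34, adjusted p = 0.0761) and without WT replicate 1_2 (-0.29, adjusted p = 0.150). The Pfkfb4 promoter, at rank 3 of the 34 by strength, had 282.4, 289.9, 300.4 and 335.9 scaled tags in WT and 342.6, 293.0, 341.5 and 306.0 in KO, which overlap (log2 difference 0.09, 95% interval -0.08 to 0.25).

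At Pfkfb3 an intronic region fell. It lay 18.9 kb from an internal TSS and 71.2 kb from the 5' end of the gene model (chr2:11482467-11483302), and it had 119.0, 130.4, 141.9 and 142.0 scaled tags in WT and 83.7, 81.8, 63.1 and 78.3 in KO. KO was at 57.5% of WT without overlap (log2 difference -0.80 ± 0.11 SE, limma adjusted p = 1.07e-06). The promoter at the 5' end (chr2:11553195-11554231) had 236.0, 260.1, 246.3 and 236.7 in WT and 223.1, 208.1, 206.3 and 220.6 in KO. All KO libraries were below all WT libraries there, but the difference did not pass (log2 difference -0.19, 95% interval -0.35 to -0.02, limma adjusted p = 0.125). The strongest Pfkfb3 promoter, at an internal TSS (chr2:11501242-11501694), had 254.4, 242.2, 223.4 and 236.7 in WT and 254.0, 214.2, 233.3 and 230.1 in KO (log2 difference -0.04, 95% interval -0.21 to 0.13). Of the 14 Pfkfb3 regions 13 were tested, and the other 12 did not pass. The window of the intronic region holds 1 hypoxia core and that of the Pfkfb4 region at 35.8 kb none of the motifs searched.

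**Figure D3:**
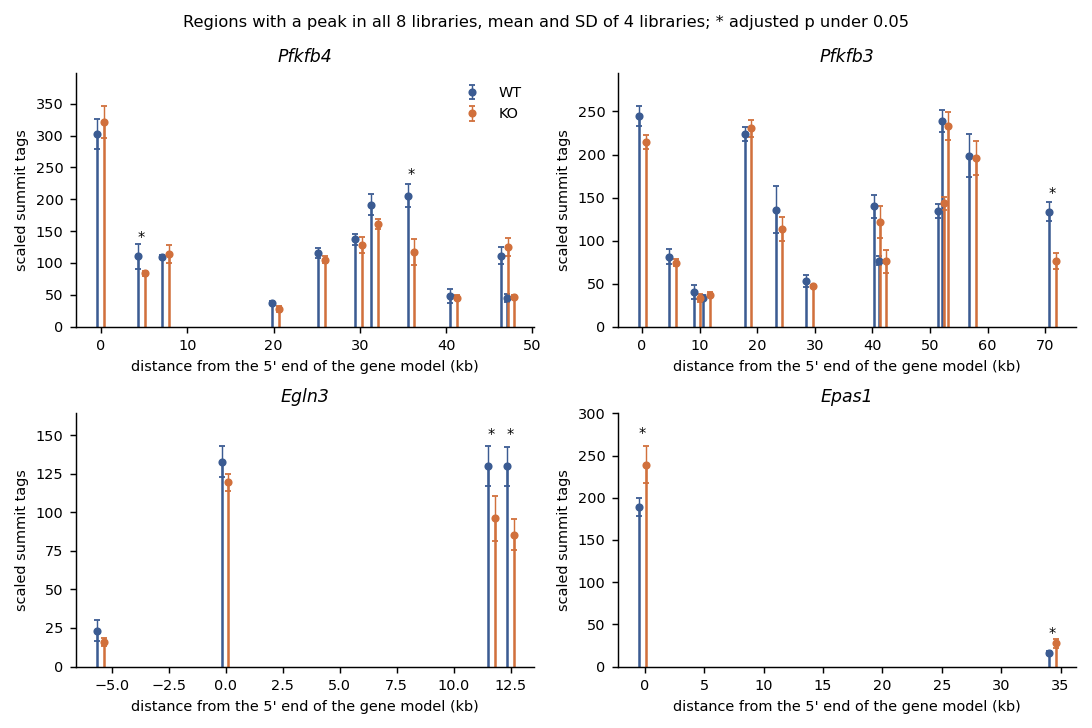
Mean scaled summit tags (vertical axis, bars SD of 4 libraries) of the tested regions at Pfkfb4, Pfkfb3, Egln3 and Epas1, against the distance of the summit from the 5' end of the gene model in kb, with asterisks where the difference passed the test. The asterisks at Pfkfb4, Pfkfb3 and Egln3 stand on regions inside the gene with WT above KO, and at Epas1 on the promoter and a weak region at 34.3 kb with KO above WT.

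Pgam1 encodes the phosphoglycerate mutase of lower glycolysis. A region across the 3' end of the gene (chr19:41918499-41918934) had its summit 6.8 kb from the start, just beyond the gene model. It held 59.0, 55.1, 61.4 and 56.4 scaled tags in WT and 37.8, 31.3, 27.1 and 30.8 in KO. At 54.9% of WT this was the largest loss at any of the 34 genes (log2 difference -0.86 ± 0.16 SE, limma adjusted p = 1.19e-04), whereas the Pgam1 promoter had a log2 difference of 0.07 that did not pass. Pfkp, the platelet-type phosphofructokinase, was lower in an intron 29.8 kb from its start (chr13:6618637-6619115). The tags there were 41.6, 38.0, 46.7 and 36.1 in WT and 29.9, 32.3, 25.9 and 16.6 in KO, without overlap (log2 difference -0.65 ± 0.19 SE, limma adjusted p = 0.0154). Without KO replicate 3, the lowest library, the difference was -0.45 (adjusted p = 0.118), and without WT replicate 3 it was -0.60 (adjusted p = 0.0640). The window of the Pfkp region holds an AP-1 site.

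Ldha encodes the lactate dehydrogenase subunit that turns pyruvate into lactate. An intergenic region 12374 bp before its start (chr7:46833279-46833643) had 96.7, 94.6, 97.1 and 122.9 scaled tags in WT and 79.7, 71.7, 78.9 and 87.8 in KO, without overlap (log2 difference -0.36 ± 0.12 SE, limma adjusted p = 0.0330). It lies within 10 kb of a longer Ldha gene model. This call did not hold with replicates 1_2 and 1_3 averaged (log2 difference -0.37, adjusted p = 0.0606), nor without KO replicate 1_2, 1_3 or 2 or without WT replicate 4 (adjusted p from 0.0552 to 0.128). It was the single region past the test at these genes with a DR1 match, which the printed sequence shows beside an AP-1 site. The Ldha promoter (chr7:46845551-46846593), with 5 hypoxia cores, had 140.2, 124.4, 141.0 and 125.1 in WT and 141.4, 152.6, 144.3 and 162.5 in KO, all KO libraries being above all WT libraries (log2 difference 0.18, 95% interval -0.01 to 0.37, limma adjusted p = 0.233). Pdk1, the kinase that keeps pyruvate out of the mitochondrion, was the enzyme with a promoter that gained accessibility (chr2:71872850-71873800). It had 187.6, 164.7, 175.8 and 181.5 in WT and 219.1, 198.0, 213.0 and 233.6 in KO, without overlap, at 122% of WT (log2 difference 0.28 ± 0.09 SE, limma adjusted p = 0.0238). The call was lost without KO replicate 1_2 or 3 or WT replicate 1_3 or 3 (adjusted p from 0.0634 to 0.102).

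The remaining enzymes (Hk1, Hk2, Hk3, Gpi1, Pfkl, Aldoa, Tpi1, Gapdh, Eno1 and Pkm) had no region past the test. Their strongest promoters had log2 differences from -0.21 at Hk3 to 0.17 at Eno1. Hk2, the inducible hexokinase, had the most accessible promoter of all, with 483.6, 423.2, 486.3 and 512.8 scaled tags in WT and 549.8, 484.9, 500.5 and 532.5 in KO. The groups overlapped there (log2 difference 0.12, 95% interval -0.03 to 0.27). For Hk3, the hexokinase of myeloid cells, the promoter difference had a limma adjusted p of 0.178. Over these 10 genes 3 regions had an unadjusted p under 0.05, at Hk2, Hk3 and Pkm.

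**Figure D4:**
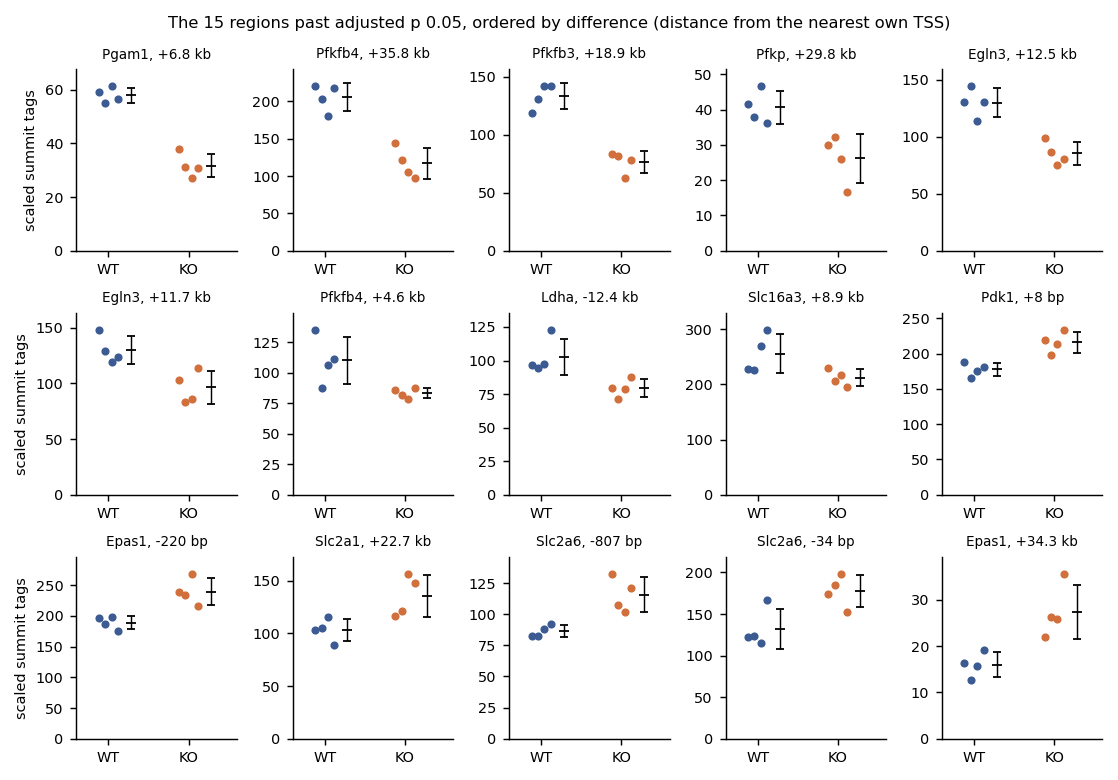
Scaled summit tags (vertical axis, from 0) of each library at the 15 regions past the test, 1 panel per region named by gene and distance from its nearest TSS, ordered from the largest loss to the largest gain, with mean and SD of 4 libraries beside the points. The WT and KO points do not overlap in 13 of the panels and overlap in those of Slc16a3 and the Slc2a6 start.

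The targets of the hypoxia factors outside glycolysis did not pass at any of their 23 tested regions (limma, 3 with an unadjusted p under 0.05). Over all regions tested, 7.03% passed as lower and 5.81% as higher, and 26.2% had an unadjusted p under 0.05. Their own promoters had a median log2 difference of 0.02. Vegfa encodes the growth factor by which hypoxic cells call for vessels, and its promoter (chr17:46032261-46033030) was the weakest of the 34, with 18.4, 22.4, 27.5 and 21.4 scaled tags in WT and 21.9, 25.3, 16.9 and 27.3 in KO. Its interval was accordingly wide (log2 difference 0.02, 95% interval -0.38 to 0.43). Adm, which encodes the vasodilator adrenomedullin, had a promoter mean of 30.7 scaled tags, while those of Ankrd37, P4ha1, Ddit4 and Bnip3 lay between 186.9 and 268.5, with Ero1l at 148.3 and Ndrg1 at 99.96 between these groups. The promoter of P4ha1, a collagen prolyl hydroxylase, had 238.9, 207.9, 217.0 and 243.5 in WT and 250.0, 265.7, 257.0 and 265.7 in KO. The groups did not overlap, but the difference of 0.20 did not pass (95% interval 0.03 to 0.36, limma adjusted p = 0.109).

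As a group the promoters were open in both genotypes. Of the 34 strongest promoters 28 ranked above the 50th percentile of summit tags of all promoter regions tested. The strongest promoter of each gene was picked for its tags, which favours a high rank. Over the 48 own promoters tested the median was 148 scaled tags, against 114 over all promoters. Of the 207 regions 163 (78.7%) had a peak in all 8 libraries, against 65.3% of the consensus. By class these were 94% of the promoters, those of neighbours included, against 81.9%, and 71.4% of the distal regions against 60.6%. The strongest promoter had a difference above 0 in 25 of the 34 genes, and of the 48 own promoters tested 33 (68.8%) were above 0, near the 72.6% of all promoters. Of the 100 distal regions 57 (57%) were below 0, against 48.2% of all distal regions, with a median of -0.03 against 0.01. With background scaling the own promoters divided evenly, 24 above and 24 below 0 (median -0.0033), against 60.3% of all promoters above 0, and 64 distal regions (64%) were below 0, against 57.3% of all distal regions. Complete separation of the libraries was seen at 13 regions with KO below WT (7.98%, against 8% of all regions) and at 11 with KO above WT (6.75%, against 8.2%). The hypoxia response core was found in 35 of the 52 own promoters (67.3%, against 50.1% of all promoter regions) and in 49 of the 140 distal regions (35.0%, against 24.9% of all distal regions). Both forms of the core contain the letters CG. The windows at these genes held a median of 14.5 CG against 14 at promoters, and 3 against 2 at distal regions. Their G and C content had a median of 65.7% against 63.2% at promoters and 50.2% against 49.2% at distal regions. The part of base composition in the difference was not tested. Of the 9 lower regions 5 held the core, which was present in 26% of all distal regions lower in KO. DR1 was found in 1 of the 9, and was present in 5% of the distal regions here, in 4.73% of all distal regions and in 10.7% of all distal regions lower in KO. These matches are letters in a window and not evidence of binding.

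Occupancy, the presence of a peak, did not separate the genotypes at any of the 207 regions. None had a peak in all 4 WT libraries and no KO library, against 0.82% of all consensus regions, and none the reverse, against 0.285%. Of the 44 regions that were not in all 8 libraries, 23 were in more WT than KO libraries (52.3%, against 51.7% of such regions in the consensus), 14 in more KO than WT libraries (31.8%, against 27.6%), and 7 in equal numbers. No KO library had a peak at 7 of them, which lay at Hk1, Pdk1, Pfkfb3, P4ha1 and Ndrg1 (1 each) and at Pfkfb4 (2), each with a peak in 2 or 3 WT libraries. Of the 207 regions, 6 had a peak in 2 WT and no KO libraries, against 2.96% of the consensus. The pattern of 3 WT and no KO libraries held at 1 region, against 1.43%. The Pdk1 region, 6014 bp before the start, was the one with 3 (42, 17 and 17 unscaled tags in WT replicates 1_3, 3 and 4). A region in the Pkm gene 22.0 kb from its start had a peak in all WT libraries (16, 24, 20 and 19 tags) and in KO replicate 3 alone (14 tags). The weakest peaks listed anywhere rested on 6 to 9 tags, which does not tell how many tags a library without a peak held. Regions with many tags also lacked peaks within a genotype. A Pfkfb3 region 1195 bp before an internal TSS had 50 and 52 tags in WT replicates 1_2 and 3 and no peak in any other library. An intergenic region 1492 bp before the start of Hk3 (chr13:55022757-55022989) had a peak in all KO libraries (36, 34, 35 and 35 tags) and in WT replicate 1_2 alone (34 tags). With 1 library allowed to depart from the rule, 3 regions counted as WT-only and 2 as KO-only. The WT-only ones were the Pdk1 region and 2 regions occupied throughout WT and in 1 KO library, a pattern of 1.21% of the consensus. Both KO-only ones were occupied throughout KO and in 1 WT library, a pattern of 0.44%. The total share of the consensus under this looser rule was not counted. The count of WT-only regions rose from 0 to 1 without KO replicate 1_3, KO replicate 3 or WT replicate 1_2, and that of KO-only regions from 0 to 1 without WT replicate 1_2 or WT replicate 4.

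The genes differed in how many regions they held. Among the oxygen sensors there were 8 regions at Arnt, 7 at Hif1a and Egln1, 5 at Vhl and 4 at Epas1 and Egln3, of which 4, 4, 5, 3, 2 and 4 had a peak in every library. Among the transporters there were 11 at Slc2a1, 9 at Slc2a3 and 5 at Slc2a6 and Slc16a3, of which 7, 8, 4 and 5 were in every library. The enzymes ranged from 3 at Hk3 to 14 at Pfkfb3 and 15 at Pfkfb4. There were 9 at Hk2 and Pfkp, 7 at Hk1, Gpi1, Ldha and Pkm, 6 at Eno1, Pdk1 and Pfkl, 5 at Tpi1, and 4 at Aldoa, Gapdh and Pgam1. Among the other hypoxia targets there were 8 at Ndrg1, 5 at Ero1l, 4 at Adm, 3 at Bnip3, P4ha1 and Vegfa, 2 at Ddit4 and 1 at Ankrd37. Every gene had at least 1 own promoter with a peak in all 8 libraries.

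Summed over each gene with its 10 kb flanks, 3 loci were lower in KO and 2 were higher (8.82% and 5.88% of 34, against 8.11% and 2.85% of the 15237 protein-coding loci tested). The sums are centred on the median locus, so their differences are not on the same scale as those of single regions. Ankrd37, with 1 region, had a log2 difference of -0.04 as a region and -0.11 as a locus. Egln3 fell most, from 444, 448, 406 and 406 scaled tags in WT to 336, 301, 285 and 317 in KO (log2 difference -0.46, 95% interval -0.60 to -0.32, limma adjusted p = 5.87e-06). Pfkfb4 fell from 1455, 1458, 1409 and 1462 to 1297, 1222, 1283 and 1176 (log2 difference -0.22, limma adjusted p = 8.35e-04), and Pfkfb3 from 1780, 1843, 1798 and 1680 to 1628, 1561, 1517 and 1535 (log2 difference -0.19, limma adjusted p = 0.00316). Epas1 rose from 217, 210, 218 and 194 to 253, 260, 285 and 245 (log2 difference 0.31, limma adjusted p = 0.00497). The Epas1 sum rests on 2 regions, the promoter and the weak intronic region that passed on their own, and so repeats those calls. Slc2a6 rose from 374, 390, 393 and 453 to 503, 468, 466 and 471 (log2 difference 0.25, limma adjusted p = 0.00730), a call that was lost with replicates 1_2 and 1_3 averaged (log2 difference 0.21, adjusted p = 0.0504). The sums at Egln3 and Slc2a6 each hold 2 regions that passed on their own among 4 summed. Those at Pfkfb4 and Pfkfb3 hold 2 among 11 and 1 among 13. The locus calls are therefore not independent of the region calls. No locus of the 34 passed with background scaling (limma, 1 lower and 1 higher at an unadjusted p under 0.05), where the log2 difference was -0.45 at Egln3 (adjusted p = 0.0891) and 0.32 at Epas1 (adjusted p = 0.542). Without WT replicate 4 the lower loci were 5 in number, Ndrg1 and Pfkp being added.

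**Figure D5:**
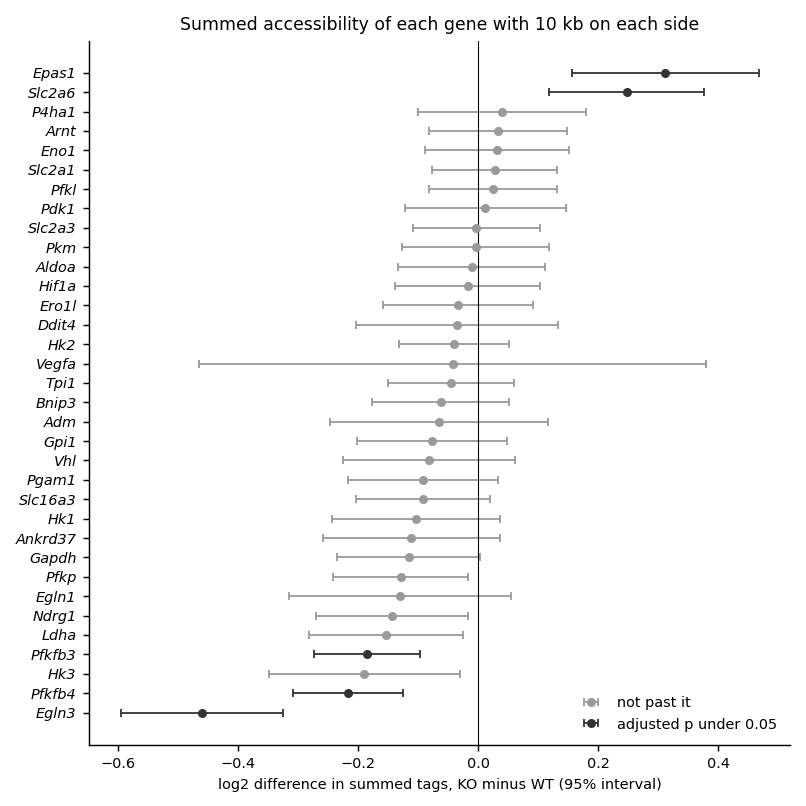
Log2 difference (KO minus WT, horizontal axis) in the summed tags of each of the 34 genes with 10 kb on each side, with 95% intervals, sorted. Dark points passed the test: Egln3, Pfkfb4 and Pfkfb3 lie below 0 and Slc2a6 and Epas1 above 0, and the widest interval is that of Vegfa, which rests on 1 region.

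A second list of 38 genes of the same pathways, regulators and branch enzymes among them, was counted in the same way. Of these, 36 had a region, 117 of their 148 regions were tested, and 10 were lower (8.55%, against 7.03% of all regions) and 8 higher (6.84%, against 5.81%) at 13 genes. The lower ones included an intron of Angptl4, an inhibitor of lipoprotein lipase induced by PPARs and by hypoxia, 2.4 kb from its start. This region had 160.5, 201.2, 203.3 and 223.2 scaled tags in WT and 151.4, 141.4, 113.8 and 119.8 in KO (log2 difference -0.58, limma adjusted p = 5.55e-05). An intron of Fbp1, the gluconeogenic fructose-1,6-bisphosphatase, fell from 43.5, 32.0, 44.9 and 49.6 to 13.9, 23.2, 22.5 and 28.5, or 51.6% of WT (log2 difference -0.95, limma adjusted p = 5.51e-04). At Hif1an, the asparaginyl hydroxylase that blunts HIF activity, a region 15.4 kb from the start fell (log2 -0.63, limma adjusted p = 3.46e-04) while the promoter rose (log2 0.37, limma adjusted p = 0.0304). Both promoter and a region 1.9 kb downstream rose at Mxi1 (log2 0.31 and 0.38), a HIF-induced antagonist of MYC, with limma adjusted p of 0.0396 and 0.00679.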

How the data were processed

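ATAC-seq libraries of sorted AMs (4 KO, 4 WT) were analysed from 1 deposited peak list per library. Groups and replicate names came from the sample titles. The 34 genes, the second list of 38 genes and the way regions are compared were chosen with earlier results of these data known.

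Per the methods, the authors used cutadapt for trimming and Bowtie2 for alignment to mm10. Duplicates and improper pairs were dropped (SAMtools), reads were extended to 200 bp at the transposase cut, and MACS3 called peaks with a q-value cutoff of 0.05. The deposited lists hold a fold enrichment over background, −log10 p and q values, a rounded score that was not used, and the summit. A library that was sequenced more deeply reaches the q threshold at a smaller enrichment, so the absence of a peak says only that the threshold was missed. The read counts used by the authors for differential testing were not used here.

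Summit tags were solved for from the deposited fold ratio and −log10 p-value, which MACS3 derives from a Poisson model. For 100% of peaks in each library a whole tag number matched the p-value to a relative error of 1e-05. Peaks were merged where they shared a base (82424 regions), and the 72711 regions in at least 2 libraries were kept. Regions occupied in all 8 libraries (47499) were tested on log2(tags + 0.5), each library being centred on its median, with limma 3.58.1 (trended variance, R 4.3.3). Requiring a peak in all libraries leaves out regions that closed below the threshold. On tags simulated for the 47499 regions, 93.5% of 200 regions changed by a log2 value of 1 were recovered, with 10 false calls. Recovery of smaller differences was not tested, and the log2 differences at the tested regions of the 34 genes ran from -0.864 to 0.761. Loci were summed over the regions occupied in all 8 libraries, in the gene body and 10 kb on each side, and fitted in the same way. Motifs were matched within 100 bp of the summit of the strongest peak of a region. Library values were described for every region of the 34 genes that passed, for the strongest promoters of Hif1a, Epas1, Slc2a1, Pfkfb3, Ldha and Vegfa as the rule for naming set out, and for Hk2, Pfkfb4, Egln3, P4ha1 and single regions of Epas1, Pdk1, Pkm and Hk3, for the Pfkfb3 promoter at the 5' end, and for the genes named from the second list, chosen after their values were seen. Alternatives were 2 other scalings, a pseudocount of 5, averaging replicates 1_2 and 1_3, a block for the replicate number, each library left out, a −log10 q of at least 5, lists of equal length, flanks of 2 or 20 kb, and a fit that allowed 1 library of each genotype to lack a peak.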

Additional observations from a re-analysis of the deposited data

Results flagged for a closer look

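Among 46 groups of 4 libraries examined (the library values of the regions past the test and of the promoters set out for naming, and 3 per-library summaries of these genes), 2 had a library whose gap to its neighbour, relative to the range of the group, exceeded the critical value of Dixon's test. Chance gives about 1 in 20 groups. Both were WT replicate 4. At the Slc2a6 start it held 166.8 scaled tags, and the other WT values ran from 115.4 to 123.0. At the region upstream of Ldha it held 122.9, compared with 94.6 to 97.1. Without it the Slc2a6 difference still passed, and that at Ldha did not.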

How the results depend on the processing

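Scaling by background tags gave 5 lower and 0 higher regions at the 34 genes (5 distal lower, 0 own promoters higher) and 0 lower and 0 higher loci. Leaving out 1 library gave 7 to 10 lower and 3 to 7 higher regions, 7 to 10 distal regions lower, 2 to 5 own promoters higher, 3 to 5 lower loci and 2 higher loci, and 0 to 1 WT-only and 0 to 1 KO-only regions. A block for the replicate number gave 7 own promoters higher and 5 lower loci, and 4 of the 20 named regions and loci did not pass with it: Slc2a1 (log2 0.25, adjusted p = 0.127), Ldha (-0.27, 0.139), Slc16a3 (-0.20, 0.115) and Pfkfb4 at 4.6 kb (-0.34, 0.0510). Same-numbered libraries correlated weakly in their deviations (0.116 for 1_3, 0.0555 for 1_2 and 0.0368 for 3), and each correlated best with its own number. The labels do not say whether a shared number marks a pair, and these values do not decide it. The main fit left the number out. Averaging replicates 1_2 and 1_3 left 1 higher locus, the call at Slc2a6 being lost (log2 0.21, adjusted p = 0.0504), and treating them as 1 sample gave 1 WT-only region. With 1 library allowed to depart there were 3 WT-only and 2 KO-only regions. None of the 20 named differences changed sign. The regions of Pfkfb4 at 35.8 kb, Pfkfb3, Egln3 at 12.5 kb and Pgam1 passed under every alternative run. The cause of the changes was not tested. Weak regions such as the Vegfa promoter rest on about 20 tags, which leaves wide intervals, and regions under 6 to 9 tags are not in the lists.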
